A study of Mus musculus with 2 samples.

Results

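The collagen chain genes of the mouse were examined as the genes whose symbol is Col, a type number, the letter a and a chain number. The matrix held 42 such genes among 21041, and they carried 133460 of the molecules counted, each molecule being 1 unique molecular identifier (UMI) of a cell. The data come from single cells of distal colon adenomas of 25-week-old mice of the strain labelled Apcmin;LSL-mTERT, sequenced on the 10x Genomics droplet platform after the tissue was broken up with collagenase A and trypsin. Apcmin mice carry a truncated copy of Apc, which restrains Wnt signalling, and LSL-mTERT is a telomerase (Tert) allele held off by a stop cassette, for which the labels give neither a driver nor the number of mice. Single libraries were labelled G0+T and G4+T, while the deposited table sorts cells into the classes CIN_high (6189 cells, 51868113 UMIs) and CIN_low (7908 cells, 74733715 UMIs), CIN being chromosomal instability, and each class is a whole library. Every cell name begins with G0, so the libraries are called by class and the match to the 2 labels is left unsettled. Each class being a single library, replicates could not be compared: no p-value was computed, every interval in the text is a 95% interval for counting error alone, and library and class cannot be told apart. In all, 11 cell barcodes occurred in both libraries.

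Collagens are secreted or membrane-bound proteins built from 3 chains wound into a triple helix, and each chain has its own gene. Fibrillar collagens (types I, III and V among them) form the rope-like fibres of connective tissue and are classically made by fibroblasts, whereas type IV collagen forms the sheet-like network of the basement membrane under epithelia and around vessels. Other classes decorate fibrils (the FACIT collagens, such as types IX, XII and XIV), form beaded microfilaments (type VI), span the cell membrane (types XIII, XVII and XXIII) or are released as proteoglycans near basement membranes (the multiplexins XV and XVIII). Of the members' UMIs, not corrected for gene length, 43.1% belonged to 10 fibrillar genes, 27.6% to 6 genes of the basement membrane network, 11.2% to 6 genes of type VI and its relatives, 8.83% to 2 multiplexins, 7.21% to 9 FACIT genes, 1.08% to 4 transmembrane genes and 0.997% to 3 short-chain genes. Col7a1, whose product anchors the epidermis, had 55 UMIs and Col26a1 had 6.

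The members are scattered over the genome of build mm10, in which Col3a1 lies at chr1:45311538-45349706, Col1a1 at chr11:94936224-94953042, Col14a1 at chr15:55307750-55520803, Col9a2 at chr4:121039385-121055322, Col9a3 at chr2:180597790-180622189 and Col23a1 at chr11:51289920-51583918. Col4a1 (chr8:11198423-11312826, minus strand) and Col4a2 (chr8:11312805-11449287, plus strand) are annotated head to head and share a start region. To show what stands before genes with different source cells, the 250 bases upstream of the annotated start are given for 4 members in RefSeq's table of promoters of build GRCm38.p6: Col3a1 of fibroblasts and pericytes (chr1:45311288-45311537, plus strand), Col13a1 of endothelium (chr10:61979109-61979358, minus strand), Col9a1 of epithelium (chr1:24177360-24177609, plus strand) and Col23a1 of lymphatic endothelium and epithelium (chr11:51289670-51289919, plus strand). By the source rule given below, Col13a1 was also called in CIN_low pericytes, Col23a1 in CIN_high fibroblasts and Col3a1 in CIN_high myeloid cells. Col9a1 was called in epithelium of CIN_low only. Each window is written 5′ to 3′ along the gene, and capitals mark the Wnt-related motif CTTTGAT or CTTTGAA read on either strand.
Col3a1: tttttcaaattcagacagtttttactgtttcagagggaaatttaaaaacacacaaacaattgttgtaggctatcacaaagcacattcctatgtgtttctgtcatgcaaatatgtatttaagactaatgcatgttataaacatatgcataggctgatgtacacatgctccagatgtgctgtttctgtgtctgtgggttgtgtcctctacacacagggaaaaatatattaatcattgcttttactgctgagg
Col13a1: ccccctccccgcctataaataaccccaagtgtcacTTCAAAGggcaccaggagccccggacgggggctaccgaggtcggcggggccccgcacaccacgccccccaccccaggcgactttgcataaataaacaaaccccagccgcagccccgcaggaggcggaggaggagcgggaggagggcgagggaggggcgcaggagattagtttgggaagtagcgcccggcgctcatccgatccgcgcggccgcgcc
Col9a1: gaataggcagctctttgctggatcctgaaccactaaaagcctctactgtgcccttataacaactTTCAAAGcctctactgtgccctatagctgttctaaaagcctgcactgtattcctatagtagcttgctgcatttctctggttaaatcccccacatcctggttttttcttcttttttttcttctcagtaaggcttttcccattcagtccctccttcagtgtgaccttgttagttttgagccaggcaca
Col23a1: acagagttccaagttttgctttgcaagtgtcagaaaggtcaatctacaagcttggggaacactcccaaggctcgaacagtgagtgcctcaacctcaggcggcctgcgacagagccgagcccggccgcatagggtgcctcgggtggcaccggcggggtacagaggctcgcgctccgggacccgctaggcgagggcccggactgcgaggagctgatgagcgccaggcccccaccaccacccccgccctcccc
The Col13a1 and Col9a1 windows each held 1 match, CTTTGAA on the minus strand, starting 215 and 186 bases before the start. Col3a1 and Col23a1 held none, and neither did a second Col9a1 window, not shown, at chr1:24194953-24195202. The table held 36 windows of 33 members, of which 5 windows (13.9%) held a match, against 2457 of all 32851 windows (7.48%). The matches not shown lay before Col6a2, Col15a1 and Col9a2. Col6a2 and Col15a1 were called in fibroblasts and pericytes of both libraries, Col15a1 in endothelium too, and Col9a2 in epithelium. GC content was 35.2% for Col3a1, 43.6% for Col9a1, 66.0% for Col23a1 and 68.8% for Col13a1, where the median over all windows was 52.4%. The Col3a1 and Col9a1 windows had no CG dinucleotide, and those of Col23a1 and Col13a1 had 18 and 24. These are descriptions of the letters only.

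Which cells carried collagen RNA differed widely. A gene's level was taken per cell, as its UMIs for every 10000 UMIs counted there, and averaged over the cells of a group, and values are given for CIN_high first and CIN_low second. Members made up 1.21% and 2.06% of all UMIs of fibroblasts, 1.08% and 1.74% of pericytes (the contractile cells that wrap small vessels), 0.320% and 0.527% of endothelial cells, 0.0174% and 0.0134% of epithelial cells, 0.0131% and 0.00368% of myeloid cells and at most 0.00311% of T and NK cells and of B cells. The cells carrying most of the collagen were not the same in the libraries: of all member UMIs, fibroblasts held 80.4% in CIN_high and 15.3% in CIN_low, pericytes 5.43% and 37.1%, and endothelial cells 7.73% and 26.7%. There were 966 fibroblasts in CIN_high and 21 in CIN_low. The yield of stromal cells from the digested tissue was not measured, so these shares are shares of captured cells' RNA.

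Droplets also take up free RNA from broken cells, so a type was called a source of a member only where the member's level was at least 5-fold that of the pooled immune cells of the same library, with a UMI in at least 2% of the type's cells and at least 10 UMIs. Immune types were set against the other immune types. By this rule 31 members had a source in at least 1 type and library. Fibroblasts were a source of 26 and 19 members, 19 of them in both libraries, and pericytes of 18 and 17, with 16 in both. All of those 16 were also fibroblast members in both libraries. Endothelial cells were a source of 7 and 7, epithelial cells of 3 and 8, myeloid cells of 4 and 1, T and NK cells of 0 and 1 and B cells of none. The remaining 11 members (Col2a1, Col4a3, Col4a4, Col7a1, Col8a2, Col10a1, Col11a2, Col19a1, Col20a1, Col25a1 and Col26a1) had between 4 and 196 UMIs in all cells.

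**Figure D1:**
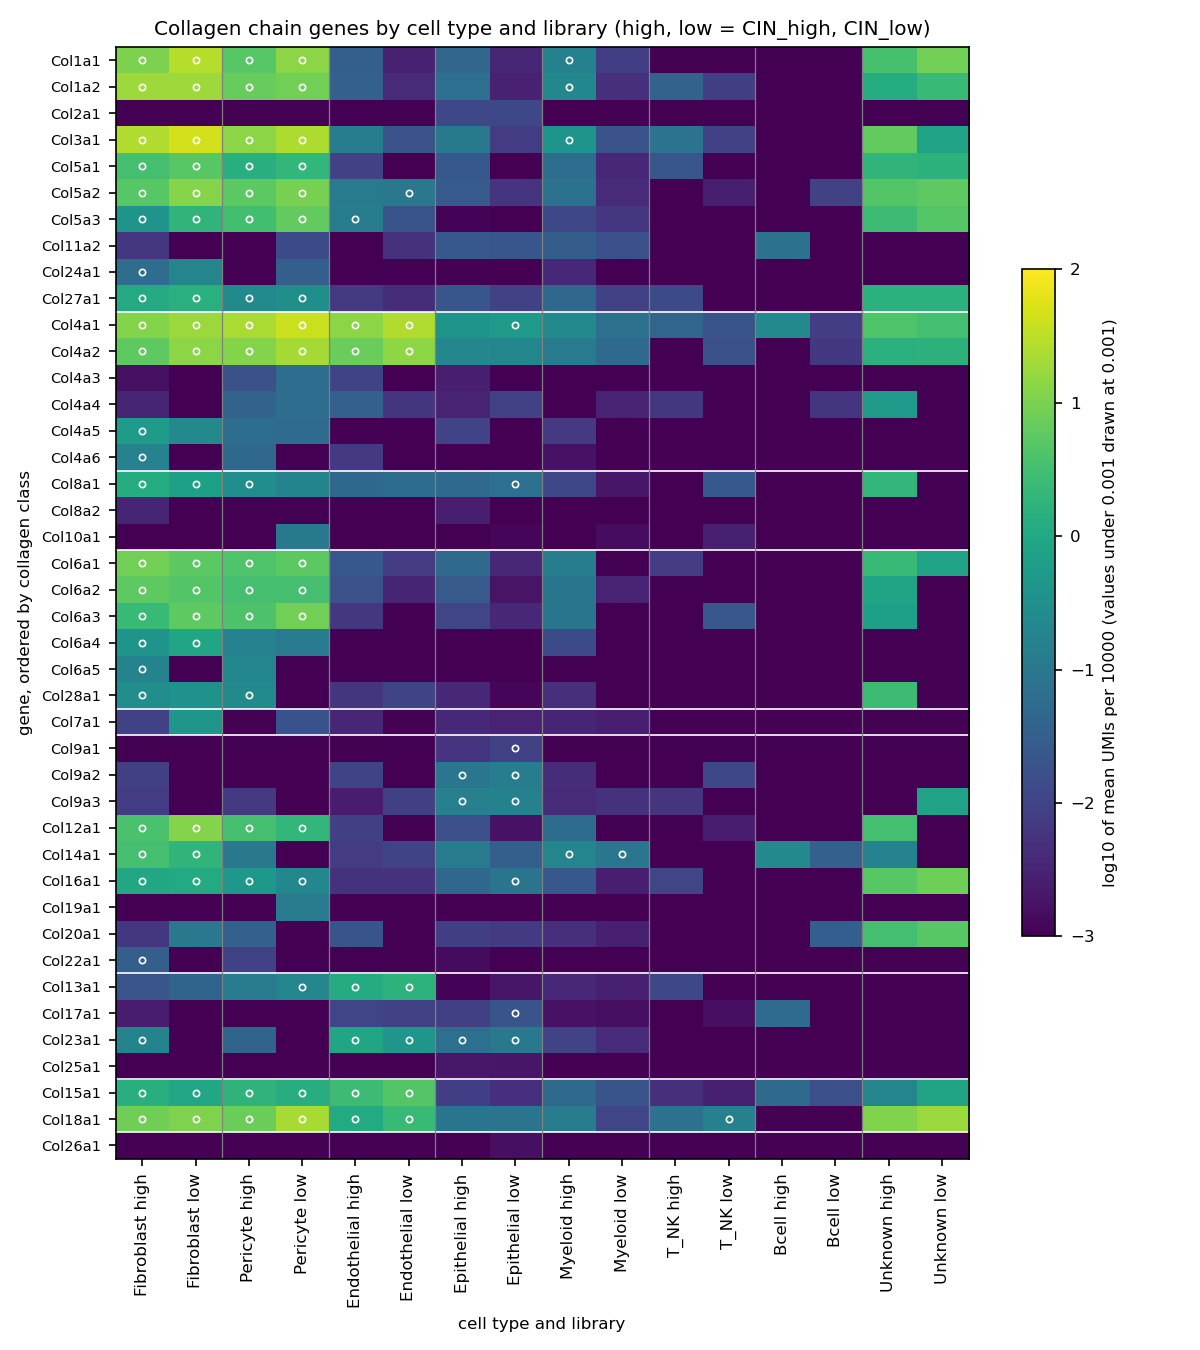
Level of each of the 42 collagen chain genes (rows, grouped by class) in each annotated cell type and library (columns), as the log10 of the mean UMIs per 10000, with white circles where the type was called a source. The bright block of fibrillar and type VI genes lies in fibroblasts and pericytes, the Col4a1 and Col4a2 rows stay bright into endothelium, and Col9a2 and Col9a3 carry circles in epithelium alone.

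Fibroblasts, the cells that lay down connective tissue matrix, were the widest source. The type I chains stood at 10.1 and 27.2 (Col1a1) and 18.3 and 18.9 (Col1a2), and the type III chain Col3a1 at 24.9 and 46.2. Intervals for the 21 CIN_low cells ran from 25.1 to 29.5 for Col1a1 and from 43.5 to 49.0 for Col3a1. Of the fibrillar type V chains, which set the diameter of fibrils, Col5a2 stood at 4.94 and 12.5 and Col5a3 at 0.379 and 1.85. The type VI chains did not differ alike: Col6a3 stood at 2.46 and 5.66, while Col6a1 stood at 8.67 and 5.48. Among the fibril-associated genes, Col12a1 was at 3.60 and 12 and Col14a1 at 3.40 and 1.86. The annotation held against markers, all 9 fibroblast markers being found at a summed 109 and 73.0. Col4a1 stood at 11.8 and 17.7, its partner Col4a2 at 5.69 and 13.5, and Col18a1, the precursor of endostatin, at 8.09 and 10.8. The 2 sets of fibroblasts were made up differently, with 15 of the 21 CIN_low cells and 117 of the 966 CIN_high cells in 1 cluster described next, and myeloid marker genes summed to 6.97 in CIN_high and 32.2 in CIN_low fibroblasts. The part of either in these values was not tested.

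The other members at source level in fibroblasts included further type V and type VI chains. Col5a1, the partner of Col5a2, stood at 3.29 and 4.95, and Col6a2 at 5.68 and 4.67. Col15a1 stood at 1.38 and 1.01, Col16a1 at 1.00 and 1.14 and Col8a1 at 1.26 and 0.691. Of the less known fibrillar genes, Col27a1 stood at 1.15 and 1.52 and Col24a1 at 0.0603 and 0.191. Col6a5 (0.170 and 0), Col22a1 (0.0327 and 0) and Col4a6 (0.162 and 0) had no UMI in the 21 CIN_low cells. Pericytes carried most of these too, with Col5a1 at 1.43 and 2.05 and Col15a1 at 1.82 and 1.28.

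Fibroblasts were clustered without the collagen genes, and clusters were named only from marker lists. Cluster 2, telocyte-like (191 cells; Sox6, Bmp3 and F3 among its leading genes), carried the basement membrane chains Col4a5 and Col4a6 at 2.53 and 0.768, where the other large clusters ranged from 0.00961 to 0.30 for Col4a5 and from 0 to 0.0673 for Col4a6. It also had the top levels of Col6a1 (14.7), Col6a4 (1.35) and Col12a1 (8.09), and Col14a1 stood at 0.154 and Col8a1 at 0. Tagln and Acta2, from the smooth muscle list, were also among the leading genes of cluster 2. Telocytes are flat fibroblasts that lie directly beneath the crypt epithelium. Cluster 5, trophocyte- or adventitia-like (123 cells; Pi16, Cd81 and Ackr4 among its leading genes), was the reverse for several members: Col14a1 stood at 15.1, Col8a1 at 6.31 and Col3a1 at 41.3, whereas Col18a1 stood at 0.939. Cluster 4 (132 cells) was led by Mmp13, Cemip and Il11, with Nrg1 of the telocyte-like list also among its leading genes, and was left unnamed. It had Col1a1 at 17.6, Col18a1 at 16.3 and Col6a3 at 5.53, and Col8a1 at 0.0388. Cluster 1 (311 cells; led by Hpse2 and Mgp) had the top level of Col28a1, a collagen with domains like those of type VI, at 0.676. Clusters 6 and 7 (33 and 12 cells) were led by myeloid and by epithelial genes, and 21 of the 33 were marked as doublets. Because all clusters but the fourth held at most 2 CIN_low cells, these are values of the CIN_high library. Within cluster 4, where 117 and 15 cells could be set side by side, Col1a1 stood at 16.2 and 28.4, Col12a1 at 4.83 and 13.7 and Col1a2 at 22.9 and 19.2, and Col6a1 at 11.8 and 4.91.

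**Figure D2:**
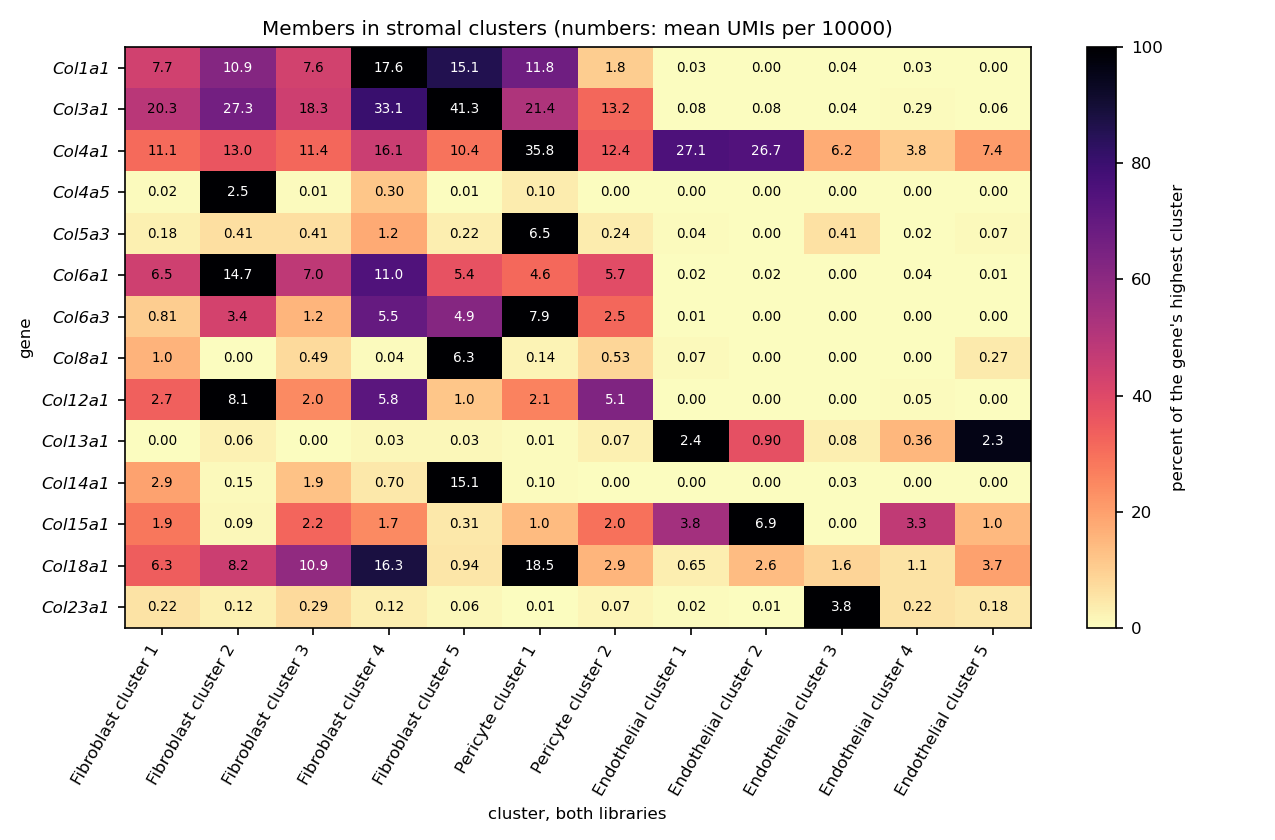
Mean UMIs per 10000 of 14 collagen chain genes (rows) in clusters of fibroblasts, pericytes and endothelial cells (columns, both libraries, without the clusters led by another type's genes), colored by percent of the gene's own highest cluster. Col4a5 is dark only in fibroblast cluster 2, Col14a1 and Col8a1 in fibroblast cluster 5, Col5a3 in pericyte cluster 1 and Col23a1 in endothelial cluster 3.

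The 2 chains of type I collagen are assembled as 2 copies of the Col1a1 product with 1 of the Col1a2 product, and their RNAs were compared within the same cells. Fibroblasts had 0.554 Col1a1 UMIs per Col1a2 UMI (interval 0.539 to 0.570) in CIN_high and 1.33 (1.17 to 1.51) in CIN_low. Pericytes had 0.843 and 1.54, but within pericyte cluster 1 the ratios were 1.26 (1.04 to 1.53) and 1.56 (1.39 to 1.75), with overlapping intervals, and cluster 2 had 0.255 in CIN_high. Within fibroblast cluster 4 the ratio was 0.709 and 1.32, and the intervals, 0.660 to 0.762 and 1.14 to 1.53, did not overlap there. The ratio between type IV partners moved less: Col4a1 gave 2.02 and 1.52 UMIs per Col4a2 UMI in fibroblasts, 1.96 and 1.87 in pericytes and 1.91 and 1.78 in endothelial cells. Col6a3 against Col6a1 was 0.285 and 0.878 in fibroblasts and 1.04 and 1.69 in pericytes. In pericyte cluster 1 it was 1.78 (1.34 to 2.38) and 1.74 (1.51 to 2.02), and in cluster 2 of CIN_high 0.463.

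Pericytes (83 and 58 cells) could be compared between libraries. A gene was measured there if it had a UMI in at least 2% of the cells of 1 library and at least 30 UMIs in all, and it was called higher or lower at 1.5-fold. Of 15 measured members, 2 were higher in CIN_high, where 16.5% of all 5540 measured genes were, and 8 were lower, where 17.4% were. The median log2 ratio, CIN_high over CIN_low, was -0.77 over the members and -0.0020 over all genes. The lower members were the fibrillar Col1a1, Col3a1, Col5a2 and Col5a3, the basement membrane Col4a1 and Col4a2, the type VI chain Col6a3 and Col18a1. Col18a1 stood at 7.44 and 21.8, a level 2.93-fold higher in CIN_low (interval 2.62 to 3.27). Col1a1 stood at 4.99 and 13.5, 2.70-fold higher in CIN_low (2.37 to 3.07). Col4a1 stood at 23.2 and 39.6, 1.71-fold higher (1.60 to 1.82), and Col5a3 at 3.11 and 6.35, 2.04-fold higher (1.70 to 2.46). The 2 genes on the other side were Col12a1, at 3.38 and 2.04, and Col16a1, at 0.460 and 0.208 from 21 and 16 UMIs, and both were lower in CIN_high as UMIs per cell (log2 ratios of -0.03 and -0.12). Counted as UMIs per cell, 12 members were lower and none higher, and 58.8% of all measured genes were lower. Col6a2 stood at 3.37 in both libraries, and the intervals of all 8 lower members lay on 1 side of equality. With UMIs summed over cells instead, 8 members were again lower, with Col5a1 in place of Col4a1.

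The cells called pericytes were themselves of more than 1 kind. Cluster 1 (35 and 53 cells) carried all 8 pericyte markers, and cluster 2 (40 cells and 1 cell), smooth muscle-like, carried 7 of 7 smooth muscle markers at a summed 224 in CIN_high with Notch3, Higd1b and Ndufa4l2 at 0. Cluster 3 (8 and 4 cells) was led by the endothelial genes Cdh5, Kdr and Pecam1. It held 411 of the 1478 and 436 of the 2468 Col4a1 UMIs of pericytes. Over both libraries cluster 1 had Col18a1 at 18.5, Col5a3 at 6.52 and Col4a1 at 35.8, where cluster 2 had 2.89, 0.239 and 12.4. Col12a1 and Col16a1 went the other way, at 2.1 and 0.161 in cluster 1 and 5.10 and 0.879 in cluster 2. Within cluster 1 alone, 14 members were measured: none was higher in CIN_high (12.7% of all genes were) and 5 were lower (20.4% were), namely Col1a1, Col3a1, Col6a1, Col6a3 and Col18a1. There Col1a1 was 1.61-fold higher in CIN_low (1.39 to 1.87) and Col18a1 1.65-fold (1.46 to 1.88), Col4a1 was 1.22-fold higher (1.12 to 1.32) and Col5a3 1.08-fold (0.883 to 1.33). Col4a1 and Col5a3, called over all pericytes, were thus within 1.5-fold in cluster 1. The summed fibroblast markers of cluster 1 were 21.6 and 37.9, with Mfap4 at 0 in both libraries, and their part in the collagen levels was not tested. All members summed stood at 127 and 170 there, a log2 ratio of -0.43, against 96.5 and 169 over all pericytes, a log2 ratio of -0.81.

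Endothelial cells (602 and 247) carried a narrow set. Col4a1, Col4a2, Col13a1, Col15a1, Col18a1 and Col23a1 were at source level in both libraries, with the basement membrane chains at 13.7 and 25.9 for Col4a1 and 7.28 and 14 for Col4a2. Of 9 measured members, 3 were higher in CIN_high (11.7% of all genes were) and 4 lower (14.5% were), with a median log2 ratio of -0.52 against -0.022 over all genes. The lower ones were Col4a1 (1.88-fold higher in CIN_low, 1.80 to 1.97), Col4a2 (1.92-fold, 1.80 to 2.03), Col15a1 (1.76-fold, 1.58 to 1.95) and Col18a1 (2.16-fold, 1.87 to 2.50). Col13a1, a transmembrane collagen, stood at 1.20 and 1.72. Col3a1 (41 UMIs and 1) and Col5a3 (32 and 3) were called higher from few molecules, and both reached the 2% share through CIN_high alone.

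The endothelial values, pooled here over both libraries, differed between clusters. Cluster 1, capillary-like (Cd36 and Rgcc among its leading genes), had Col4a1 at 27.1 and Col13a1 at 2.39 over both libraries. Cluster 2, unnamed, with Csf3 and Kit among its leading genes, had the top Col15a1 level at 6.90. Cluster 5, arterial-like (Gja5, Sema3g, Gja4), had the top Col18a1 level at 3.67. Cluster 4, venous-like (Ackr1 among its leading genes), had Col4a1 at 3.79. Its Col4a1 UMIs were 123 in 101 CIN_high cells and 138 in 17 CIN_low cells. In cluster 5 they were 209 in 60 and 273 in 27. The part of the library mix in the pooled levels was not tested. Cluster 3, lymphatic-like (Mmrn1, Ccl21a, Lyve1 and Reln), lines the vessels that drain tissue fluid and have a thin, broken basement membrane. It carried Col23a1 at 3.76, where the other vessel clusters ranged from 0.0114 to 0.219, and had Col15a1 at 0 and Col4a1 at 6.17.

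Set side by side cluster by cluster, the library difference was not uniform. In cluster 1 (232 and 67 cells), Col4a1 stood at 23.7 and 38.6, 1.63-fold higher in CIN_low (1.51 to 1.75), and Col18a1 at 0.321 and 1.78, 5.54-fold higher (3.60 to 8.59). Of 5 measured members, 4 were lower in CIN_high there, Col4a1, Col4a2, Col13a1 and Col18a1, and none higher. Of all genes in that cluster, 18.7% were lower and 15.0% higher. In cluster 2 (61 and 92 cells), Col4a1 stood at 22.2 and 29.6 and Col15a1 at 7.39 and 6.57, and none of 5 measured members passed 1.5-fold (13.4% of genes were higher and 17.2% lower). In lymphatic-like cluster 3 (130 and 21 cells), Col4a1 and Col4a2 were lower in CIN_high of 4 measured members, and none was higher. Of all genes in it, 15.5% were lower and 30.9% higher. Col23a1 stood at 3.65 and 4.42 in that cluster, although over all endothelial cells Col23a1 stood at 0.869 and 0.402 and was called higher in CIN_high. With clusters 1 to 5 given equal mixes in both libraries, the log2 ratio of Col23a1 was -0.17. Col4a1, Col4a2 and Col18a1 were then still called lower in CIN_high, and Col15a1 was not. The lymphatic markers of all endothelial cells summed to 54.9 and 17.6. Whether the differences between clusters exceed the spread between animals was not tested.

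**Figure D3:**
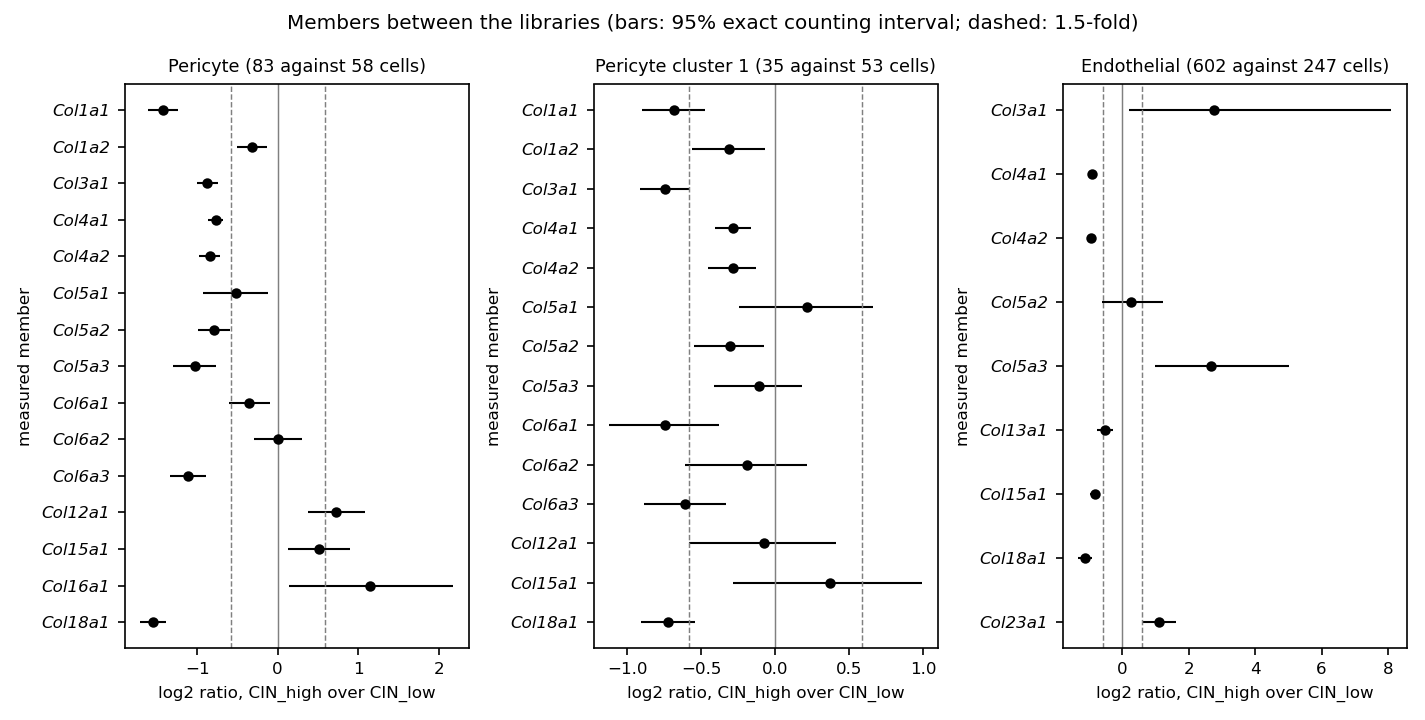
Log2 ratio of the level in CIN_high over CIN_low for each measured collagen chain gene in all pericytes, pericyte cluster 1 and all endothelial cells, with 95% counting intervals (bars) and the 1.5-fold lines (dashed). Most points lie left of 0 in pericytes and the type IV genes do in endothelium, and in pericyte cluster 1 Col1a1, Col4a1, Col5a3 and Col18a1 lie nearer to 0 than in all pericytes while Col6a1 lies farther.

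Genes of the collagen pathway outside the family were counted from lists, to be read against the share of all measured genes called higher and lower, which was 16.5% and 17.4% in pericytes, 11.7% and 14.5% in endothelium and 4.16% and 7.70% in epithelium. In pericytes, of 17 measured genes for collagen folding, modification and secretion, 7 were lower in CIN_high and 1 higher. The collagen chaperone Serpinh1 stood at 4.15 and 8.76 and the prolyl 3-hydroxylase P3h1 at 0.227 and 0.584, and the lysyl hydroxylase Plod2, the 1 higher gene, at 2.09 and 0.267. Of 8 genes for processing and cross-linking outside the cell, 4 were lower and 3 higher, with the procollagen N-proteinase Adamts2 at 1.64 and 6.43. Of 7 proteoglycans and fibril partners 2 were lower, Sparc (23.4 and 52.4) and Dcn, and 2 higher. Of 10 basement membrane partners 2 were lower, Nid1 and Nid2, which link laminin to type IV collagen, and 2 higher. Both counts lie near the shares of all genes. Of 4 collagen receptors 2 were lower, Itga1 and Ddr1. Within pericyte cluster 1 the first 3 lists gave 6 lower and 1 higher of 17, 4 and 1 of 7, and 2 and none of 5. Basement membrane partners gave 1 and 2 of 10 there, and receptors none of 3. Of all genes measured in that cluster, 20.4% were lower and 12.7% higher. Sparc, Nid1, Itga1 and Ddr1 were not called in it. In endothelial cells the same lists gave 4 lower and none higher of 18, 2 lower and 2 higher of 5, 3 and 1 of 5, 1 and 1 of 10, and 3 and none of 6, of which 1 and 1 of 10 lie near the shares of all genes. Among the endothelial genes was Hspg2, the basement membrane proteoglycan perlecan, at 3.09 and 4.73. In epithelium no measured gene of these lists was lower, and 3 of 17, 2 of 5, 4 of 5, 1 of 12 and 1 of 7 were higher, the 4 being the proteoglycans and partners Tnxb, Dcn, Bgn and Sparc. Of the Dcn UMIs of CIN_high epithelium, 92.3% lay in the 25 Igfbp-positive cells. Basement membrane partners had source cells on both sides: the laminin chain Lamb3 stood at 1.40 and 1.27 in epithelium, and at 0.0248 and 0 in fibroblasts.

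Epithelial cells (1316 and 1725) carried a small set of collagens of their own. Col9a2 and Col9a3, 2 chains of type IX collagen, which is best known from cartilage, stood at 0.0934 and 0.132 and at 0.149 and 0.157. That was 23.1-fold and 90.8-fold the immune level for Col9a2 and 36.3-fold and 33.7-fold for Col9a3. The Col9a2 folds rested on few reference molecules, with 8 and 2 Col9a2 UMIs in myeloid cells. A Col9a2 UMI was found in 9.80% and 16.3% of epithelial cells and in 0.239% and 0.0374% of myeloid cells, with median depths of 14032.5 and 15364 against 5721.5 and 6171 UMIs. Thinned to 3000 UMIs per cell, the shares were 2.80% and 3.80% against 0.103% and 0.0229%. The third chain, Col9a1, had 12 and 38 UMIs and was at source level in CIN_low. Col23a1 stood at 0.0669 and 0.107, 6.99-fold and 28.3-fold the immune level. In CIN_low, Col4a1 (0.495, 7.59-fold), Col8a1 (0.0685, 19.7-fold), Col16a1 (0.0858, 36.2-fold) and Col17a1 (0.0200, 13-fold), the hemidesmosome collagen, were at source level too. In CIN_high those 4 stood at 0.392, 0.0523, 0.0491 and 0.00894, and the immune reference for Col4a1 was 0.213 in CIN_high and 0.0652 in CIN_low. That reference holds a myeloid cluster described last. Without it, epithelial cells of CIN_high were a source of 8 members instead of 3, gaining Col4a2, Col6a1, Col6a2, Col8a1 and Col16a1; 86.6% of the Col6a1 and 84.2% of the Col6a2 UMIs lay in the 25 Igfbp-positive cells described below. With T, NK and B cells alone as the reference, CIN_high epithelium lost Col9a2 and Col23a1 and gained Col4a1 and Col4a2, and CIN_low lost Col8a1, Col9a1 and Col17a1 and gained Col4a2. Those lymphocytes had no Col9a2 UMI in CIN_high, so the floor of 3 UMIs set the reference there.

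These members did not share 1 subtype, the Igfbp-positive cells described below being left aside. Col4a1 was high in Stem_cell_1, at 0.639 and 0.812, and stood at 0.302 and 0.703 in proliferating cells. It stood at 0.283 and 0.454 in Cancer_cell_1, 0.107 and 0.199 in enterocytes and 0.0772 and 0.191 in p57-positive cancer cells, the subtype named for the cell cycle inhibitor p57. Col9a2 had another order: 0.0102 and 0.0154 in Stem_cell_1, 0.140 and 0.215 in Cancer_cell_1, 0.345 and 0.180 in p57-positive cells and 0 and 0.00133 in enterocytes. Col9a3 followed it, at 0.229 and 0.262 in Cancer_cell_1, 0.308 and 0.159 in p57-positive cells and 0 and 0.00719 in enterocytes. Complement-positive stem cells had Col4a1 at 0.263 and 0.457, Col9a2 at 0.0451 and 0.117 and Col9a3 at 0.129 and 0.152, all 3 at source level in CIN_low. Stem_cell_1 of CIN_low was also called a source of Col9a2, and Stem_cell_1 of CIN_high a source of Col9a3.

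Col23a1 stood out in 1 subtype. In p57-positive cells (77 and 211 cells) it stood at 0.552 (interval 0.401 to 0.741) and 0.629 (0.535 to 0.736), in Cancer_cell_1 at 0.0680 and 0.0563 and in Stem_cell_1 at 0.00228 and 0.00990. A Col23a1 UMI was found in 31.2% and 34.1% of p57-positive cells and, thinned to 3000 UMIs, in 13.7% and 15.2%. The thinned shares in Cancer_cell_1 were 1.94% and 1.52%. Col16a1, a FACIT collagen, stood at 0.139 and 0.263 in p57-positive cells and at 0.0285 and 0.0589 in Cancer_cell_1. Col8a1, a short-chain collagen of vessel walls and membranes, was higher in Cancer_cell_1 (0.0829 and 0.122) than in Stem_cell_1 (0.0202 and 0.0453). The cartilage collagen Col2a1, at 41 UMIs in all cells, had 15 and 9 of them in Cancer_cell_1, 3 and 9 in p57-positive cells and none in stem, proliferating, enterocyte or secretory cells.

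**Figure D4:**
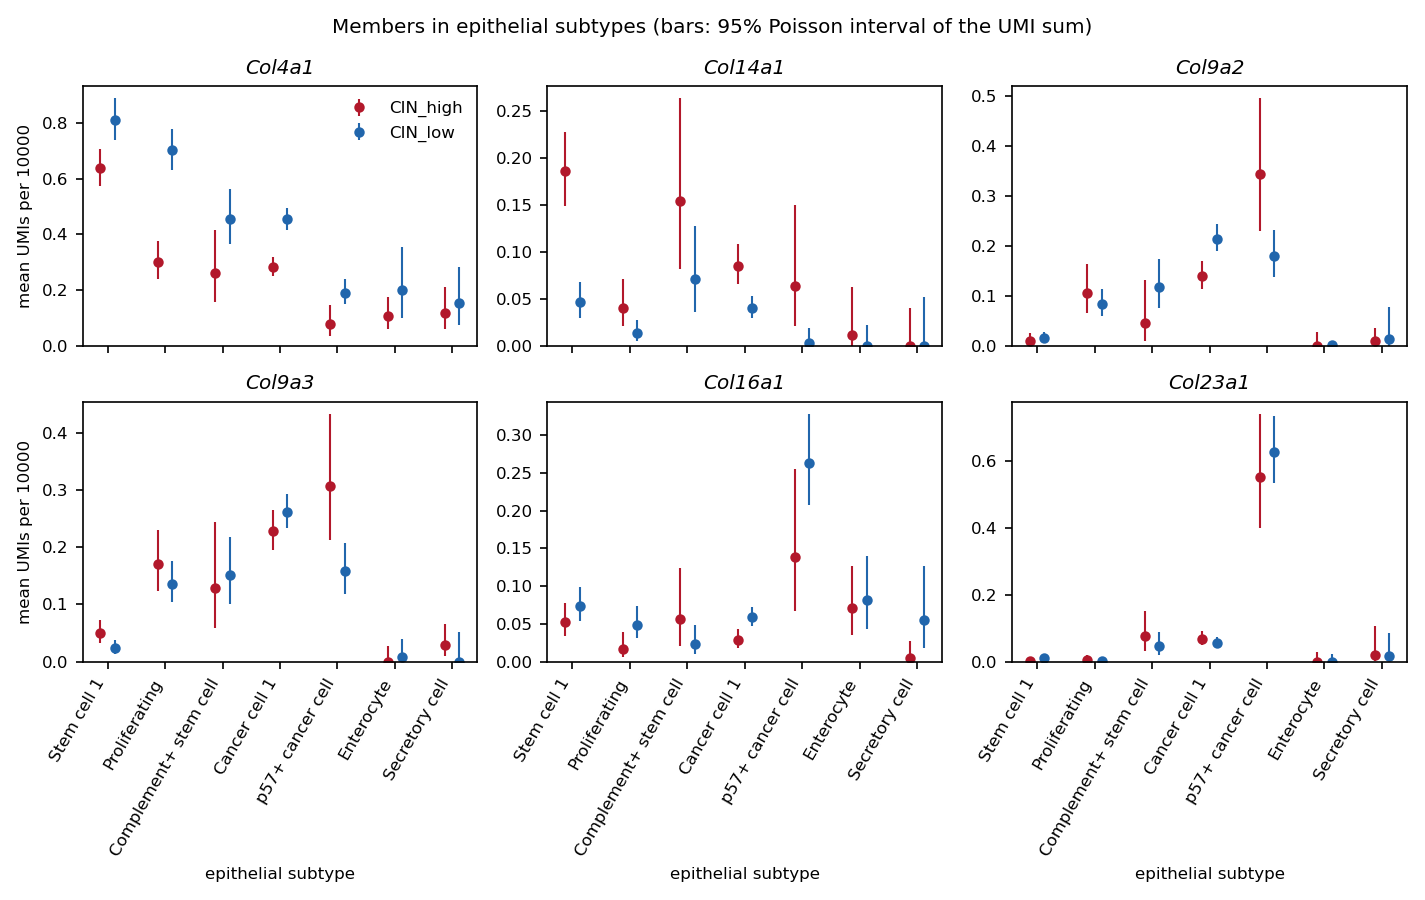
Mean UMIs per 10000 of 6 collagen chain genes in 7 annotated epithelial subtypes, by library (red CIN_high, blue CIN_low), with 95% Poisson intervals of the UMI sums as bars. Col4a1 is high in Stem_cell_1, Col9a2 and Col9a3 in cancer and p57-positive cells, and Col23a1 stands above 0.5 in p57-positive cells of both libraries. Col14a1 stands higher in Stem_cell_1 than in Cancer_cell_1 in CIN_high, and close to it in CIN_low.

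Between libraries, 19 members were measured in epithelium, of which 8 were higher in CIN_high (4.16% of all 13304 genes were) and 4 lower (7.70% were). The lower were Col9a1, Col16a1, Col17a1 and Col23a1, of which Col16a1 was 1.75-fold higher in CIN_low (1.38 to 2.23). The interval of Col9a1 (0.799 to 3.28) included 1. With all ratios centred on the median gene, 2 were lower, Col16a1 and Col17a1. Col23a1 stood out in p57-positive cells, which were 77 of the 1316 CIN_high and 211 of the 1725 CIN_low cells. By the levels given above, it lay within 1.5-fold between libraries in those cells and in Cancer_cell_1. The part of the subtype mix in its ratio was not tested. The higher members were Col14a1 and also Col1a1, Col1a2, Col3a1, Col5a2, Col6a1, Col6a2 and Col27a1. All of these but Col14a1 reached the 2% share through CIN_high alone and so had to be high there, and Col9a1 and Col17a1 likewise passed through CIN_low alone. A group of 25 cells carried most of the Col1a1, Col1a2 and Col3a1 molecules. Those are the 25 cells of the authors' Igfbp-positive subtype, which occurs in CIN_high alone. Col1a1, Col1a2 and Col3a1 together had 560 UMIs in CIN_high epithelium, 509 of them in the 25 cells. The other 1291 cells had 51 UMIs in 50 cells, none with 3 or more, and the 1725 CIN_low cells had 28 UMIs in 23 cells. With the 25 cells left out, 12 members were measured, 1 was higher (Col14a1) and 5 lower, Col8a1 being the addition, where 3.59% of all genes were higher and 8.02% lower. The summed level of Col1a1, Col1a2, Col3a1 and the type VI chains Col6a1, Col6a2 and Col6a3 was 0.305 and 0.0231 with all cells, 13.2-fold, and 0.0484 and 0.0232 without the Igfbp-positive and S100a8-positive subtypes, 2.09-fold.

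The Igfbp-positive cells carried RNA of both kinds of cell. All 7 epithelial markers (summed level 65.0) and all 9 fibroblast markers (23.9) were found, 13 of the 25 cells were marked as doublets, and the median depth was 21133 UMIs. The part of mixed droplets in their collagen levels was not tested. Their collagens were set against Dcn, a proteoglycan of fibroblasts. Per Dcn UMI there were 0.135 UMIs of Col1a1 (0.108 to 0.167) against 0.176, 0.132 of Col6a1 against 0.146 and 0.200 of Col4a1 against 0.202, each value being followed by that of the fibroblasts of the library. Col3a1 was at 0.706-fold the fibroblast ratio and Col14a1 at 1.44-fold.

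The same ratio was taken in the remaining epithelium. The ratio of all fibroblasts is an average over clusters, among which Col14a1 alone stood between 0.154 and 15.1. Col3a1 gave 0.393 UMIs per Dcn UMI (0.235 to 0.640) in CIN_high, 0.860-fold the fibroblast ratio, and 0.800 (0.388 to 1.62) in CIN_low, 0.589-fold, from 61 and 20 Dcn UMIs. Col1a1 was at 1.12-fold and 0.538-fold. Col4a1, in contrast, was at 62.0-fold and 155-fold the fibroblast ratio, and Col14a1 at 51.2-fold and 99.6-fold. Endothelial cells and pericytes also carry Col4a1, and the part of RNA from any of these cells was not tested.

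**Figure D5:**
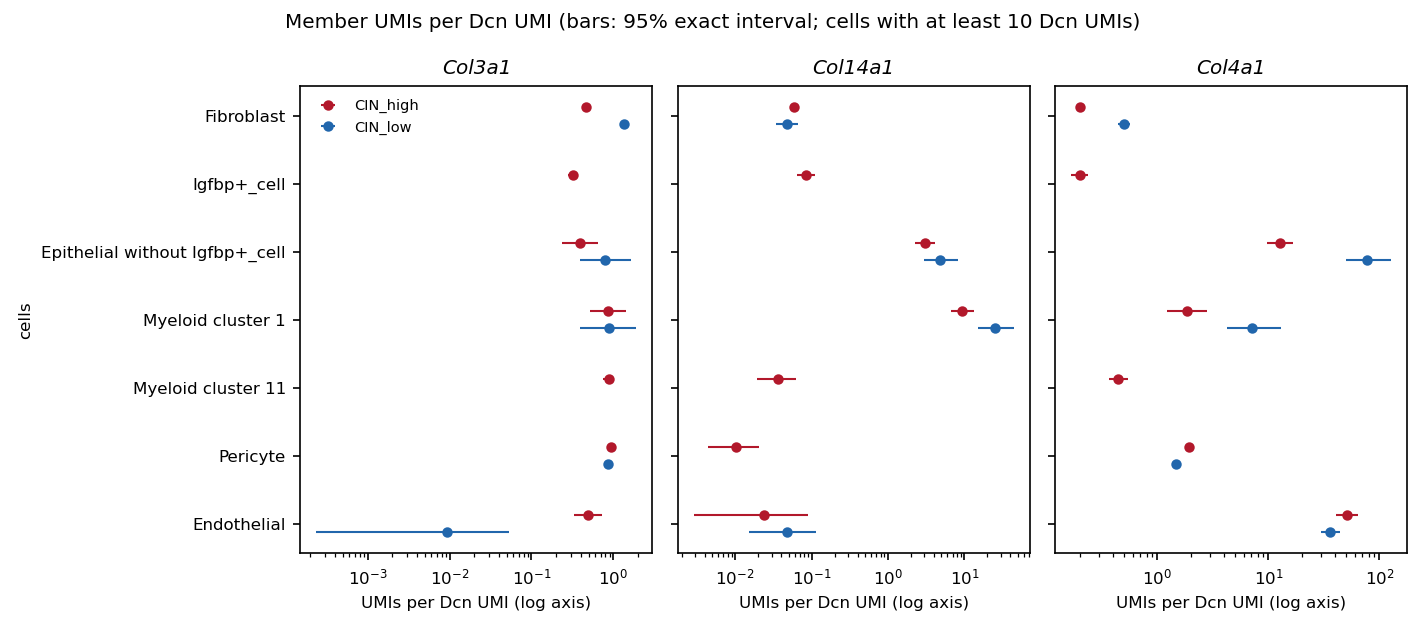
UMIs of Col3a1, Col14a1 and Col4a1 per Dcn UMI (log axis) in fibroblasts and in other groups of cells with at least 10 Dcn UMIs, by library, with 95% exact intervals as bars. Col3a1 in epithelium without the Igfbp-positive cells lies near the fibroblast point of CIN_high, whereas Col14a1 in epithelium and in myeloid cluster 1 lies 51.2-fold or more above that of its own library.

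Col14a1, a FACIT collagen of fibril surfaces, was found outside the stroma in 2 places. In epithelium it stood at 0.119 and 0.0322, which is 0.682-fold and 0.390-fold the immune level and so not at source level. By subtype it was at 0.186 and 0.0463 in Stem_cell_1, 0.0856 and 0.0401 in Cancer_cell_1 and 0.0113 and 0 in enterocytes. Secretory cells had no UMI in either library. Complement-positive stem cells had 13 UMIs in 39 cells and 11 in 85, where Stem_cell_1 had 90 in 346 and 25 in 338. In myeloid cells Col14a1 stood at 0.187 and 0.0898. That was 5.72-fold and 8.05-fold the reference from the other immune cells, and Col14a1 was the 1 member called there in both libraries. Most of it lay in myeloid cluster 1 (873 and 1182 cells; Vcam1, Ccl8 and C1qa among the leading genes), with 344 of 414 and 400 of 477 UMIs, where 25.0% and 20.7% of cells had a UMI. T and NK cells had no Col14a1 UMI in either library, and B cells had 2 in each. In CIN_low the myeloid reference was therefore the floor of 3 UMIs, which was used where fewer were counted. C1qa, a complement gene of macrophages, was counted in the same cells: Col14a1 gave 0.00976 and 0.00733 UMIs per C1qa UMI in myeloid cells, and 2.65 (1.77 to 4.05) and 0.278 (0.171 to 0.437) in Stem_cell_1. Complement-positive stem cells gave 0.0175 (0.00927 to 0.0301) and 0.00676 (0.00337 to 0.0121), intervals that include the myeloid ratios, and enterocytes of CIN_high gave 0.0145 from 1 UMI.

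Myeloid cells of CIN_high were called a source of Col1a1, Col1a2 and Col3a1 as well. Of their 756 UMIs of these 3 genes, 612 lay in cluster 11, 70 of the 2930 cells. That cluster had a median depth of 1470 UMIs, was led by Igfbp5, Cxcl13 and Dcn, carried all 9 fibroblast markers and was left unnamed. Without it, Col14a1 alone was called in the myeloid cells of CIN_high. Of 7 members measured in myeloid cells between the libraries, 7 were higher in CIN_high (7.83% of all genes were) and none lower (3.30% were), but 4 of the 7, Col1a1, Col1a2, Col3a1 and Col15a1, reached the 2% share through CIN_high alone and so had to be high there. Without cluster 11, which held 52.3% of the Col4a1 and 48.0% of the Col4a2 UMIs, Col3a1, Col14a1 and Col15a1 were higher of 5 measured, Col4a1 and Col4a2 were not called, and 6.15% of all genes were higher. Col18a1 in T and NK cells of CIN_low, the 1 call in lymphocytes, rested on 27 UMIs, against 9 in CIN_high.

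The cells of unknown type were 18 in CIN_high, none marked as a doublet, and 2 in CIN_low, both marked as doublets, too few for a call. They carried 5 and 4 of the 6 glia markers, at a summed 34.0 and 37.9, and no smooth muscle or T cell marker. Members made up 0.627% and 0.631% of their UMIs. Col20a1, a FACIT gene with 88 UMIs in all cells, had 26 of them in the 18 cells, a level of 3.19, and 6 in the 2 cells, a level of 4.99. In fibroblasts Col20a1 stood at 0.00632 in CIN_high. Col16a1 stood at 5.08 and 8.0 in these cells, and Col18a1 at 11.5 and 17.5.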

How the data were processed

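Single cells of 2 droplet libraries of adenoma cells were analysed. The authors deposited 1 matrix on the natural log scale, ln(1 + UMIs per 10000) as its values show, with a class, a type and an epithelial subtype per cell. Cell Ranger 2.1.1, Seurat and the build mm10 are named, per the submitters' processing notes; the annotation, cell filters, doublet treatment and correction for free RNA were not stated. Dividing by the smallest value of each cell gave whole numbers for 100% of entries (tolerance 0.01), taken as UMIs. The design foresaw averaged linear values for such a file, so levels are means over cells, and a side with 0 UMIs was set to 3 UMIs. Intervals are exact (Poisson, Clopper-Pearson for shares of cells, conditional binomial for ratios) at 95% and cover counting error only. For a ratio of levels, the interval of the summed UMIs was scaled to the ratio of means. Calls for whole types needed at least 50 cells in each library and source calls 20 cells; ratios for fibroblasts and single clusters rest on the cell numbers given beside them.

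Cells of each type were clustered without the members (Scanpy 1.11.5; 1500 variable genes, 20 components, 15 neighbours, Leiden resolution 0.5). Doublets were marked with Scrublet at an expected rate of 6% and kept. All 42 members matched GENCODE vM21, which is of the files' build. The functions were tested on simulated data. Of genes simulated without a change, 17.4% in pericytes, 13.5% in endothelium and 2.57% in epithelium passed the 1.5-fold line. Of genes simulated at 0.5-fold, 80.0%, 98.0% and 93.9% passed it, in the same order. The members and the gene lists were chosen with earlier results of these data known. Members at source level in at least 1 type were named with values and the rest given by counts and ranges; of the other lists, at most 4 genes with the largest ratios past 1.5-fold were named. Col2a1, Col20a1 and Lamb3 were chosen after their values were seen. Alternatives changed the scaling, the filters, the fold, the reference, the doublets, cells with Dcn and the subtypes or clusters counted. No column was of another series. Python 3.11.15, numpy 2.4.6, pandas 2.3.3, SciPy 1.17.1 and matplotlib 3.10.9 were used.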

Additional observations from a re-analysis of the deposited data

Results flagged for a closer look

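Several members had log2 ratios (CIN_high over CIN_low) past 1.5-fold in opposite directions in different cell types; these differences between types were not tested. Col1a1 was at -1.43 in pericytes against 3.67 in epithelium and 4.18 in myeloid cells. Col3a1 was at -0.87 in pericytes against 2.76 in endothelium, 3.82 in epithelium and 4.34 in myeloid cells. Col5a2 was at -0.79 in pericytes and 2.22 in epithelium. Col4a1 was at -0.77 in pericytes and -0.91 in endothelium against 1.70 in myeloid cells, and Col4a2 at -0.84 and -0.94 against 1.20. Col15a1 was at -0.81 in endothelium and 1.37 in myeloid cells. Several of these values belong to members that reached the 2% share through CIN_high alone and so had to be high there. They were Col3a1 in endothelium, Col1a1, Col3a1 and Col5a2 in epithelium, and Col1a1, Col3a1 and Col15a1 in myeloid cells. Of the CIN_high epithelial UMIs, 89.2% of Col1a1 and 90.8% of Col3a1 lay in the 25 Igfbp-positive cells. Of the CIN_high myeloid UMIs, 80.0% of Col1a1, 80.9% of Col3a1, 52.3% of Col4a1 and 48.0% of Col4a2 lay in cluster 11, without which Col4a1 and Col4a2 were not called there.

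Col5a3 was at -1.03 in pericytes and 2.66 in endothelium, where it too reached the 2% share through CIN_high alone. Col16a1 was at 1.15 in pericytes and -0.81 in epithelium, and Col23a1 at 1.11 in endothelium and -0.68 in epithelium. The values of Col16a1 in pericytes and of Col23a1 in endothelium reversed in alternatives given below. The cells of unknown type, outside every comparison, carried Col20a1 at 3.19, Col16a1 at 5.08, Col28a1 at 2.69 and Col18a1 at 11.5 UMIs per 10000 in CIN_high, above the level in immune cells.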

How the results depend on the processing

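No paired analysis was possible because each class has 1 library. Of 409 recomputed values of named members, 320 stayed within the counting interval of the reported value, 83 moved outside it and 6 that had passed 1.5-fold reversed; 10 of those that stayed or moved, all within 1.5-fold to begin with, changed sign, among them Col5a1 in pericytes (0.21 in cluster 1, from -0.52) and Col5a2 in endothelium (-0.12 by UMIs per cell, from 0.27); of 185 other values, 139 held, 44 moved and 2 reversed. The cause of each change below was not tested beyond what the alternative leaves out. Alternatives that leave out a cluster or the Igfbp-positive cells, or that standardise the endothelial cluster mix, were chosen after seeing the data.

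Source calls in CIN_high and CIN_low myeloid cells were 0 and 0 at 10-fold; CIN_low had 3 at 3-fold and 2 by UMIs per cell, and CIN_high had 1 at a share of 5%. CIN_high epithelium had 7 by UMIs per cell. Without myeloid cluster 11, CIN_high epithelium had 8 and myeloid cells 1. Counts of members higher in CIN_high pericytes were 1 (summed UMIs), 0 (UMIs per cell), 4 (10 UMIs, no share), 1 (2-fold), 1 (without cells with Dcn) and 0 (cluster 1), and of lower ones 4 (2-fold) and 5 (cluster 1). Scaling by UMIs per cell moved the median gene by -0.70 in pericytes and -0.48 in endothelium (log2). In endothelium, higher members were 1 (share of 5%) and 6 (10 UMIs), and 1 was lower at 2-fold. In epithelium, higher members were 1 (share of 5%), 13 (10 UMIs), 4 (without doublets), 1 (without cells with Dcn) and 1 (without Igfbp-positive cells), and lower ones 2 (centred), 2 (share of 5%) and 1 (2-fold). In myeloid cells, higher members were 2 (share of 5%), 23 (10 UMIs, with 1 lower), 4 (without cells with Dcn) and 3 (without cluster 11).

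The log2 ratio of the 6 fibroblast collagens in epithelium, 3.72, became 1.06 without the Igfbp-positive and S100a8-positive subtypes, 1.03 with the subtype mix standardised, 3.07 without doublets and 2.25 without cells with Dcn. That of all members summed became -1.37 (UMIs per cell) and -0.43 (cluster 1) in pericytes from -0.81, and -1.15 (UMIs per cell), -0.89 (without doublets) and -0.63 (clusters standardised) in endothelium from -0.84. In fibroblasts it became -1.21 (UMIs per cell) and -0.32 (cluster 4) from -0.69. In epithelium it reversed from 0.20 to -0.01 (without doublets) and -0.23 (without Igfbp-positive cells). Members past 1.5-fold that reversed were Col12a1 and Col16a1 in pericytes, -0.03 and -0.12 by UMIs per cell and -0.08 and -1.89 in cluster 1, Col23a1 in endothelium, -0.17 with clusters standardised, and Col4a2 in myeloid cells, -0.08 without cluster 11. At resolution 1.0 the log2 ratio of Col4a5 in telocyte-like cells over other fibroblasts was 3.44, from 5.22. Depth limits the rarer epithelial members, such as Col9a1 with 12 and 38 UMIs, and the fibroblast levels of CIN_low, which rest on 21 cells.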
